A study of Mus musculus with 24 samples.

Results

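Sirtuins are enzymes that use NAD to remove acetyl and longer acyl groups from lysines, so that each reaction consumes a molecule of NAD. The mouse genome carries 7 of them, Sirt1 to Sirt7, and these 7 genes, taken by symbol from both count tables, are described here out of 54658 gene symbols in the tables. All 7 passed the low-count filter in each tissue. SIRT1, SIRT6 and SIRT7 work mainly in the nucleus, SIRT7 largely in the nucleolus, SIRT2 is found mostly in the cytoplasm, and SIRT3, SIRT4 and SIRT5 are mitochondrial. Beta-nicotinamide mononucleotide (β-NMN) is a precursor of NAD, and the question put to the data was whether transcripts of these NAD-using enzymes differed between mice given β-NMN and mice given vehicle, and how much of each transcript the tissues held.

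RNA was sequenced from 24 libraries of male C57BL/6 mice aged 7 to 12 weeks. For the TGC model, mice received Brewer thioglycollate medium (TGC) in the peritoneum, which draws leukocytes there without infection, and their peritoneal cells were then exposed to E. coli in culture for 6 h. This gave 6 libraries from vehicle (saline) mice and 6 from mice injected daily with β-NMN at 185 mg/kg. For the sepsis model, mice underwent cecal ligation and puncture (CLP), in which gut contents leak into the abdomen. Heart and lung were taken from 3 vehicle mice and 3 mice given β-NMN, also at 185 mg/kg. In both models the last injection preceded sacrifice by 24 h. For the septic organs it was also the only injection, given right after surgery, so these organs were taken 24 h after CLP. No unstimulated peritoneal cells and no sham-operated organs were analysed here, so every value refers to E. coli-exposed cells or to septic organs. The source labels of the organ libraries name thioglycollate peritonitis, whereas their titles and tissue labels name CLP, and CLP is used here. A title gives the β-NMN heart of mouse B17 the same replicate number as that of mouse B18, and it is called replicate 2 here because the lung of mouse B17 is replicate 2.

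Totals of counted reads ran from 31126823 to 112456050 in peritoneal cells, from 27319513 to 68523239 in hearts and from 8915366 to 28356786 in lungs. Levels are given as CPM, the counts of a gene for every 1000000 counts of its library, scaled within each tissue by the trimmed mean of M-values (TMM). The library with 8915366 counts was lung vehicle replicate 2, from mouse A17, and it stood apart from the others: the SD over genes of its log2 difference from the remaining lungs was 1.57, against 0.45 to 0.60 for the other 5. The heart of the same mouse had an SD of 0.99, against 0.39 to 0.58. In the peritoneal cells, β-NMN replicate 6 held the outlying highest value of its group at 804 of 14985 genes and the outlying lowest value at 406, more than any other library of the 12. Sirtuin results that rest on these 3 libraries are given with and without them, except the likeness of genes over all 24 libraries. Cell markers matched the labelled organs, with summed cardiomyocyte markers of 30476 to 56905 CPM in hearts and summed lung epithelial markers of 54840 to 99253 CPM in lungs. Macrophage markers summed to 5411 to 11957 CPM in peritoneal cells, but lung sums reached 5430 CPM, so this sum did not fully separate the 2 tissues. Lyz2 alone ran from 3463 to 8195 CPM in peritoneal cells and from 1059 to 5177 in lungs.

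To compare genes with each other, CPM was divided by the length of the merged exons. This length joins the exons of all annotated transcripts of a gene, and it ran from 2398 bases for Sirt4 to 6093 for Sirt5. Which transcripts were present was not tested, so the order of genes depends on this annotation. In vehicle peritoneal cells Sirt2, a deacetylase of tubulin, led with 27.5 ± 2.40 CPM per kb (SD, n = 6), and it made up 61.7% ± 1.22 of the family sum. Sirt1 followed at 7.17 ± 0.925 and Sirt7 at 6.57 ± 0.783 CPM per kb, and the ranges of this pair overlapped. Sirt6 stood at 2.72 ± 0.262 CPM per kb. The mitochondrial members were the lowest, with Sirt4 at 0.357 ± 0.0668, Sirt3 at 0.195 ± 0.0389 and Sirt5 at 0.0881 ± 0.0420 CPM per kb. Apart from Sirt1 and Sirt7, no neighbours in this order overlapped.

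Septic hearts and lungs held the family in another order. Vehicle hearts held Sirt2 at 19.1 ± 3.91 CPM per kb (n = 3), 47.5% ± 3.24 of the family, followed by Sirt4 at 4.07 ± 0.639. That place of Sirt4 came with the division by length. In plain CPM it ran from 8.54 to 11.5, below Sirt1 at 16.5 to 18.8 and Sirt7 at 18.2 to 20.3. The other 5, Sirt7, Sirt6, Sirt5, Sirt1 and Sirt3 in descending order, lay between 3.01 and 3.68 CPM per kb, and each overlapped the next. Without replicate 2, the heart of mouse A17, Sirt4 was at 4.32 and Sirt5 at 4.21 CPM per kb, with overlapping ranges and above the other 4, and Sirt1 was lowest at 3.18. In vehicle lungs Sirt2 was at 17.5 ± 11.1 and Sirt7 at 11.04 ± 3.38 CPM per kb, with overlapping ranges. Without the lung of mouse A17 they were at 23.9 and 12.8 and did not overlap. Sirt6, Sirt3, Sirt1 and Sirt4 lay between 3.30 and 4.18 CPM per kb with overlapping ranges, and Sirt5 was lowest of the family at 1.20 ± 0.382. Here too the order rested on mouse A17: in the other 2 vehicle lungs Sirt6 was at 6.02, Sirt4 at 4.48 and Sirt1 at 4.00 CPM per kb, followed by Sirt3 at 2.12 and Sirt5 at 1.42. The 2 count tables were scaled separately, so the levels of peritoneal cells and organs are set side by side without a test.

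**Figure D1:**
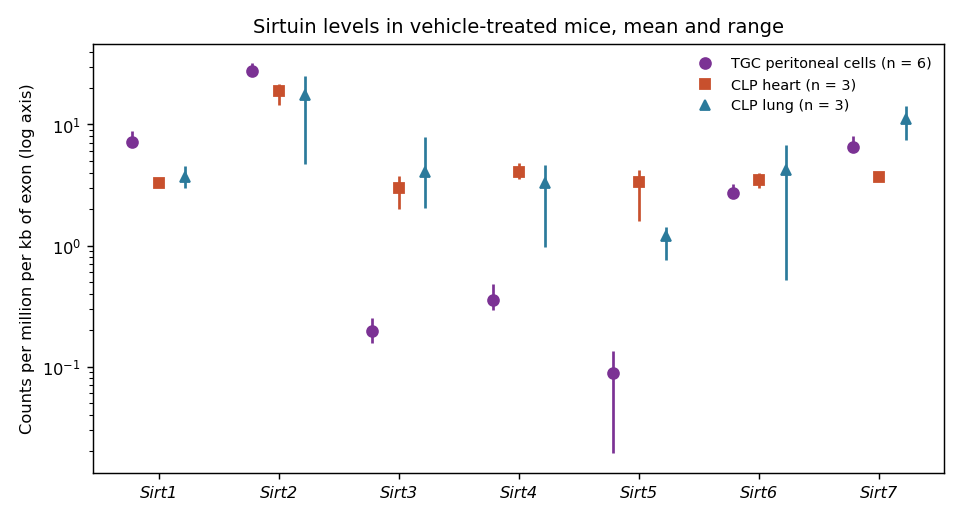
Sirtuin levels in vehicle-treated mice. The y axis gives CPM per kb of exon on a log axis, symbols give the mean and vertical lines the range over 6 peritoneal cell, 3 heart and 3 lung libraries. Sirt3, Sirt4 and Sirt5 lie below 0.5 CPM per kb in peritoneal cells, while all 7 means lie above 1 in hearts and lungs, and Sirt2 has the highest mean in each tissue.

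Of the 7 sirtuins, Sirt7 alone passed the test in peritoneal cells. Its transcript was lower after β-NMN. SIRT7 is the nucleolar sirtuin, which associates with RNA polymerase I at ribosomal RNA genes. The vehicle libraries ran from 30.6 to 41.4 CPM with a median of 32.7, and the β-NMN libraries from 20.02 to 28.4 CPM with a median of 24.1. Every β-NMN library thus lay below every vehicle library. The means were 33.8 ± 4.03 and 23.8 ± 2.85 CPM (SD, n = 6 each), a log2 fold change of −0.51 (SE 0.10, 95% interval −0.72 to −0.29) with an adjusted p of 0.000692 by edgeR's quasi-likelihood test with Benjamini-Hochberg adjustment over 14985 genes. An exact two-sided permutation test gave p = 0.00216, the smallest that 6 against 6 allows. Calls were common in this comparison: 51.6% of all tested genes passed the same threshold, 27.9% as lower, while 26.6% had groups that did not overlap, 14% as lower, so 1 call among 7 sirtuins was below the share over all genes. Sirt7 ranked 3054 by p among the 14985 genes. Because the samples were RNA of mixed cells, fewer cells of a type and less RNA per cell cannot be told apart here.

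Sirt7 lies on chromosome 11 at 120618372 to 120625240 on the minus strand (GRCm38). Its annotated exons share 124 bases, or 2.41% of their length, with exons of Mafg on the same strand. Mafg, a small MAF transcription factor, fell as well, with a log2 fold change of −1.26 and an adjusted p of 0.000192 (edgeR). How the authors assigned reads in the shared bases was not stated, and the part of those reads in the Sirt7 difference was not tested. The window around the RefSeq start site of Sirt7, 250 bases before it and 50 after, is shown because this is the sirtuin whose level differed after β-NMN. It spans chr11:120624965-120625264 (RefSeq, GRCm38.p6, minus strand), printed 5′ to 3′ along the gene, with matches to 6 searched motifs in capitals.
Sirt7: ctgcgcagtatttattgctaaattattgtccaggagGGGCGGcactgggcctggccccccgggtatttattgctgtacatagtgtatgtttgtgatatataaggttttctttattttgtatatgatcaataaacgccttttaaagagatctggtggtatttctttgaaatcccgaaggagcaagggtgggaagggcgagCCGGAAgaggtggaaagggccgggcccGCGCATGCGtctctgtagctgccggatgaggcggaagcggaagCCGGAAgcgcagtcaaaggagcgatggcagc
The motifs, searched on both strands, were the TATA box (TATAAA), the GC box (GGGCGG), the E-box (CACGTG), the CCAAT box (CCAAT), an ETS motif (CCGGAA) and the core of the NRF1 motif (GCGCATGCG). Sirt7 carried 1 GC box, 2 ETS motifs and 1 NRF1 core. Of 32851 promoter windows of this length, 35.7% held a GC box, 14.9% the ETS motif and 1.75% the NRF1 core. A match describes letters in this window and not a bound site.

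Sirt1, the nuclear deacetylase of p53 and of the NF-κB subunit p65, had a lower mean after β-NMN but did not pass the test, and 1 library decided the outcome. Vehicle libraries ran from 34.7 to 47.2 CPM with a median of 35.7. The β-NMN libraries held 26.4, 24.9, 23.9, 27.5, 23.7 and 55.0 CPM. Thus 5 of the 6 lay below every vehicle library, and replicate 6, with 2363 Sirt1 counts, lay above them all. The means were 38.2 ± 4.93 and 30.2 ± 12.2 CPM (SD, n = 6 each), a log2 fold change of −0.34 (SE 0.19) with an adjusted p of 0.144 (edgeR). An exact permutation test gave p = 0.0952. Without β-NMN replicate 6 the log2 fold change was −0.57 (SE 0.09) with an adjusted p of 0.000161, and with limma-voom, which gives noisy libraries less weight, it was −0.48 with an adjusted p of 0.00238. Leaving out any other library kept the adjusted p of Sirt1 above the threshold, and without β-NMN replicate 6 Sirt7 had a log2 fold change of −0.53 with an adjusted p of 0.000417.

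Sirt1 lies on chromosome 10 at 63319005 to 63381704, minus strand (GRCm38). Its start window is shown beside that of Sirt7 for comparison, and it spans chr10:63338986-63339285 (RefSeq, GRCm38.p6, minus strand). The RefSeq start site, 63339035, lies inside the annotated span of the gene and not at its outer start of 63381704. Motif matches are again in capitals, adjoining and overlapping copies of the GC box running together.
Sirt1: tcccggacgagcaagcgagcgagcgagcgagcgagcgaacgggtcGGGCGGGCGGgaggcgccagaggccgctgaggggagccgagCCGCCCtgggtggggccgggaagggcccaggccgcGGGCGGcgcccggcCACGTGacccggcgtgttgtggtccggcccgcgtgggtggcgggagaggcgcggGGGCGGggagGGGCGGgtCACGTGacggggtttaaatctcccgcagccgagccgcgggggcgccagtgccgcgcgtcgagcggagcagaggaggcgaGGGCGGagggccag
It held 7 GC boxes and 2 E-boxes, the latter found in 7.15% of all windows. Its GC content was 79.0%, against 51.3% for the Sirt7 window and a median of 52.7% over all windows.

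Sirt6, a chromatin deacetylase with roles in DNA repair and telomere maintenance, and the cytoplasmic Sirt2 did not pass the test either. Sirt6 ran from 6.90 to 8.92 CPM with a median of 7.32 in vehicle libraries and from 5.69 to 7.56 with a median of 6.77 after β-NMN, a log2 fold change of −0.17 (SE 0.10, adjusted p = 0.199, edgeR). Sirt2 ran from 126 to 161 CPM with a median of 137 in vehicle libraries and from 116 to 136 with a median of 123 after β-NMN. Its log2 fold change was −0.14 (SE 0.08, 95% interval −0.31 to 0.03) with an adjusted p of 0.150 by edgeR, and the exact permutation test on this gene by itself gave p = 0.0476. The intervals of both genes leave out a halving or a doubling: that of Sirt6 ran from −0.39 to 0.06 on the log2 scale.

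The mitochondrial members had the lowest CPM of the family in peritoneal cells, and none of them passed the test. Sirt3, the main mitochondrial deacetylase, ran from 0.927 to 1.51 CPM with a median of 1.10 in vehicle and from 0.797 to 1.36 with a median of 0.993 in β-NMN libraries (log2 fold change −0.14, SE 0.20, adjusted p = 0.592, edgeR). Sirt4, which acts on glutamate dehydrogenase, was the single member with a higher fitted value, running from 0.700 to 1.16 CPM with a median of 0.807 in vehicle and from 0.714 to 1.33 with a median of 0.985 after β-NMN (log2 fold change 0.22, SE 0.21, adjusted p = 0.391, edgeR). Groups overlapped for both. Sirt5, which removes succinyl and malonyl groups, rested on 6 to 79 counts per library, and its log2 fold change of −0.07 (SE 0.35) had an interval from −0.82 to 0.69 and changed sign with the processing.

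**Figure D2:**
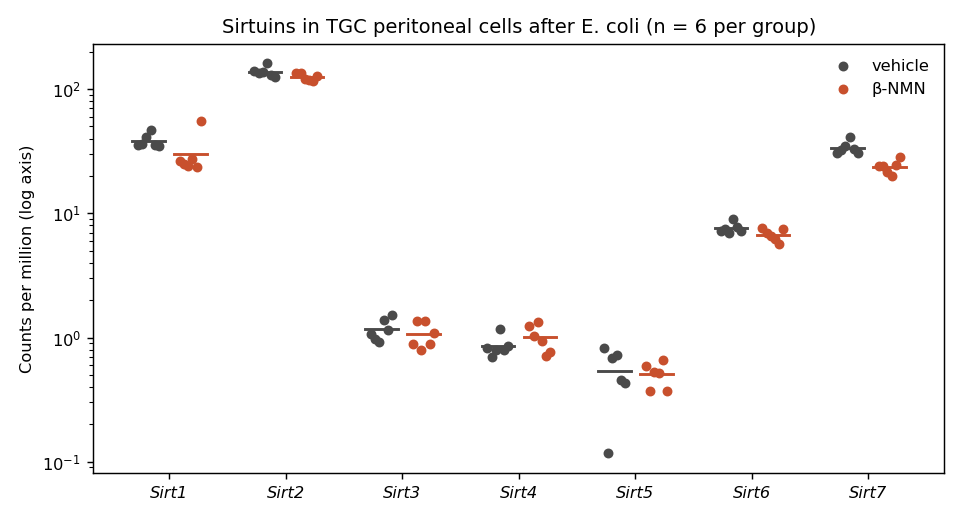
Sirtuins in E. coli-exposed peritoneal cells of the TGC model. The y axis gives CPM on a log axis, points are libraries of 6 vehicle and 6 β-NMN mice and horizontal lines are group means. The β-NMN points of Sirt7 all lie below the vehicle points, 5 of the 6 β-NMN points of Sirt1 do and the remaining one lies at 55.0 CPM, and Sirt5 has 1 vehicle point at 0.117 CPM.

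Markers of several cell types differed with treatment in these samples. Of 6 macrophage markers 3 were higher after β-NMN and none lower, where 23.7% of all genes were higher. The summed macrophage level ran from 5411 to 8289 CPM in vehicle and from 10250 to 11957 in β-NMN libraries, with no marker at 0 in every library. Lyz2 alone ran from 3463 to 5658 CPM in vehicle and from 7029 to 8195 in β-NMN libraries. Of 6 neutrophil markers 4 were lower and 1 higher (27.9% and 23.7% of all genes), the sum running from 489 to 990 and from 334 to 467 CPM. The alarmin gene S100a8, a neutrophil marker, had a mean of 87.4 ± 35.4 CPM in vehicle and 2.78 ± 1.46 in β-NMN libraries. The 6 markers did not move together. Retnlg ran from 3.33 to 10.1 CPM in vehicle and from 3.21 to 30.1 in β-NMN libraries. Mmp8 ran from 6.40 to 14.4 and from 6.77 to 23.1 CPM. All 3 tested fibroblast markers of 4 were lower, with sums of 52.6 to 595 and 13.98 to 50.5 CPM, and all 4 T cell markers were lower, with sums of 3.53 to 14.7 and 1.84 to 3.69 CPM. All 3 erythroid markers were higher, with sums of 2.69 to 33.1 and 44.6 to 114 CPM. The part of these cell types in the Sirt7 and Sirt1 values was not tested.

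Genes that work with the sirtuins were taken from fixed lists and read against a median log2 fold change of −0.02 over all 14985 genes, of which 51.6% were called, 23.7% as higher and 27.9% as lower. Of 9 nuclear partners of SIRT6 and SIRT7, 6 were lower after β-NMN, 1 was higher, and the median was −0.34, beside 27.9% lower and 23.7% higher over all genes. Ubtf, a transcription factor of ribosomal RNA genes, fell from 23.5 ± 4.40 to 13.2 ± 1.94 CPM (log2 fold change −0.83, adjusted p = 0.000122, edgeR), and Fbl, the nucleolar methyltransferase fibrillarin, fell from 36.3 ± 5.81 to 25.4 ± 2.59 CPM (−0.51, adjusted p = 0.00108). Xrcc5, the larger Ku subunit of DNA end joining, fell from 1.70 ± 0.570 to 0.679 ± 0.126 CPM (−1.35, adjusted p = 0.000256). In all 3 the groups did not overlap, as for 26.6% of all genes (14% of all as lower), and the 3 are those of the list with the smallest p.

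Among 9 regulators of SIRT1, 3 were higher and 4 lower, beside 23.7% and 27.9% of all genes, with a median of −0.25. With no filter on low counts 3 were called in place of 7. Hic1, a transcriptional repressor of Sirt1, fell from 5.07 ± 1.97 to 0.739 ± 0.234 CPM (log2 fold change −2.79, adjusted p = 1.21e-06, edgeR). Usp22, a deubiquitinase that stabilises SIRT1 protein, rose from 23.2 ± 1.57 to 40.0 ± 3.14 CPM (0.78, adjusted p = 1.83e-06). Senp1, a SUMO protease, fell from 42.2 ± 3.83 to 33.6 ± 2.75 CPM (−0.33, adjusted p = 0.00428).

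Of 20 genes for substrates of SIRT1 and SIRT2, 9 were lower, 3 higher and the median was −0.42. That is 12 of 20 called, near the 51.6% of all genes. Hif1a, the oxygen-sensing transcription factor, fell from 662 ± 134 to 306 ± 35.5 CPM (log2 fold change −1.11, adjusted p = 7.39e-06, edgeR), and Trp53 fell from 36.8 ± 4.85 to 22.8 ± 2.41 CPM (−0.69, adjusted p = 5.38e-05). Nr1h3, the liver X receptor alpha gene, rose from 22.3 ± 2.56 to 35.3 ± 2.86 CPM (0.66, adjusted p = 3.21e-05). Of 15 tested substrates of the mitochondrial sirtuins of 17, 7 were higher and 1 lower, 8 called against 51.6% of all genes, with a median of 0.27. Acss1, mitochondrial acetyl-CoA synthetase, rose from 7.10 ± 0.959 to 16.9 ± 4.23 CPM (1.25, adjusted p = 2.07e-05) and Opa1, a fusion protein of the inner membrane, from 21.8 ± 1.24 to 32.5 ± 1.42 CPM (0.58, adjusted p = 1.10e-05). The lower gene was Sod2, mitochondrial superoxide dismutase, at 1200 ± 139 and 703 ± 50.8 CPM (−0.77, adjusted p = 1.06e-05).

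The other enzyme families of lysine acetylation had 4 called members each of 10 tested, below the 51.6% of all genes, and the sirtuins 1 of 7. Of 10 tested zinc-dependent deacetylases of 11, 1 was higher and 3 lower, with a median of −0.24, and with no filter on low counts 2 were called. Hdac5 fell from 34.3 ± 10.8 to 18.5 ± 3.99 CPM (log2 fold change −0.89, adjusted p = 0.00174, edgeR), Hdac4 from 13.8 ± 2.02 to 9.84 ± 1.23 CPM (−0.48, adjusted p = 0.00274), and Hdac2 rose from 14.7 ± 1.51 to 18.1 ± 1.56 CPM (0.30, adjusted p = 0.0137). Of 10 lysine acetyltransferases 3 were lower and 1 higher, with a median of −0.08. Crebbp, the CBP acetyltransferase, fell by 0.67 on the log2 scale, Kat6b by 0.75 and Kat5, known as TIP60, by 0.49, with adjusted p values of 0.000987, 0.00190 and 0.00253 (edgeR).

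Genes that supply or use NAD were also read. Of 7 tested NAD salvage enzymes of 8, 2 were lower and none higher, and 27.9% of all genes were lower. Nmrk1, nicotinamide riboside kinase, fell from 3.92 ± 1.09 to 1.42 ± 0.407 CPM (log2 fold change −1.46, adjusted p = 0.000110, edgeR), and Nampt, the rate-limiting salvage enzyme, fell from 1343 ± 279 to 1038 ± 91.4 CPM (−0.37, adjusted p = 0.0246). Naprt, which starts from nicotinic acid, had 2.82 ± 0.699 and 3.43 ± 0.670 CPM and did not pass (adjusted p = 0.178). The count of 2 became 1 with no filter on low counts, and also when vehicle replicate 2 or β-NMN replicate 1, 3, 4 or 5 was left out. Of 6 tested other NAD consumers of 7, 3 were called, beside 51.6% of all genes: the ectoenzyme Cd38 fell from 324 ± 67.3 to 126 ± 44.1 CPM (−1.36, adjusted p = 9.55e-05), its relative Bst1 fell by 0.80 on the log2 scale (adjusted p = 0.00104), and Tnks, tankyrase, rose by 0.51 (adjusted p = 0.0161).

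In septic hearts no sirtuin passed the test, and neither did any of the 16245 genes tested with edgeR, where 1837 genes and 1 sirtuin, Sirt4, had an unadjusted p under 0.05. DESeq2 called 283 genes and limma-voom 3, and neither called a sirtuin. The largest fitted values of the family were those of the mitochondrial members and Sirt2, and all of them were smaller without the vehicle heart of mouse A17. Sirt4 held 11.5, 8.54 and 9.25 CPM in vehicle replicates 1, 2 and 3 and 12.3, 13.1 and 12.9 CPM in β-NMN replicates 1, 2 and 3. Sirt2 held 107, 73.4 and 108 CPM in vehicle and 130, 120 and 120 CPM in β-NMN hearts. In both genes all β-NMN hearts lay above all vehicle hearts, which was so for 11.6% of all tested genes, with 23.1% not overlapping in either direction, and an exact permutation test of 3 against 3 cannot go below p = 0.1. The log2 fold change was 0.39 for Sirt4 (SE 0.15, adjusted p = 0.435, edgeR) and 0.36 for Sirt2 (SE 0.17, adjusted p = 0.444), and without vehicle replicate 2 these became 0.29 and 0.19.

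Sirt5 held 25.9, 9.65 and 25.5 CPM in vehicle and 29.3, 25.0 and 24.6 CPM in β-NMN hearts. Sirt3 held 22.3, 11.9 and 19.6 CPM in vehicle and 22.5, 24.2 and 20.2 CPM in β-NMN hearts. The low vehicle value of both was replicate 2, and the log2 fold changes of 0.37 for Sirt5 and 0.31 for Sirt3 became 0.03 and 0.08 without it. That library also had the lowest summed cardiomyocyte markers, 30476 CPM against 49238 to 56905 in the other hearts, and the highest summed mesothelial markers, 89.9 CPM against 5.51 to 11.3. Of 11 lists of cell markers its sums lay above those of the other 5 hearts for 5 and below them for 3. The part of this in the sirtuin values was not tested.

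The nuclear members showed smaller fitted differences in hearts. Sirt1 held 16.5, 18.8 and 17.4 CPM in vehicle and 14.6, 14.2 and 17.9 CPM in β-NMN hearts (log2 fold change −0.17, SE 0.14, 95% interval −0.50 to 0.16). Sirt6 held 9.88, 11.1 and 8.38 CPM in vehicle and 8.71, 9.04 and 10.8 CPM in β-NMN hearts (−0.04, SE 0.17). Sirt7 held 18.4, 20.3 and 18.2 CPM in vehicle and 20.7, 17.1 and 20.3 CPM in β-NMN hearts (0.04, SE 0.13, interval −0.26 to 0.33). Groups overlapped in all 3, and without vehicle replicate 2 the log2 fold changes were −0.12 for Sirt1, 0.05 for Sirt6 and 0.08 for Sirt7.

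None of the list genes passed the edgeR test in hearts either, while DESeq2 called 1, Bst1 (adjusted p = 0.00664). Among the genes named by rank, Cd38 held 28.2 ± 2.29 CPM in vehicle and 18.9 ± 4.22 in β-NMN hearts (log2 fold change −0.58, adjusted p = 0.435, edgeR), and Bst1 held 13.7 ± 0.205 and 7.30 ± 1.63 CPM (−0.91, adjusted p = 0.435). Without vehicle replicate 2 these were −0.52 and −0.91. Both genes were called lower in peritoneal cells, measured there in other mice. Of 17 mitochondrial sirtuin substrates 15 had a higher fitted value, with a median of 0.34 against −0.01 over all genes, but without vehicle replicate 2 this median was 0.06, with 12 higher. Mlycd, malonyl-CoA decarboxylase, had 0.70 (adjusted p = 0.435) and 0.42 without that heart, and Ppif, cyclophilin D, had 0.57 (adjusted p = 0.454) and 0.28 without it. Kat8 held 13.2 ± 2.09 and 18.3 ± 0.728 CPM (0.47), Hdac5 held 116 ± 35.5 and 174 ± 13.0 CPM (0.58), and the kinase gene Nmrk2 held 9.22 ± 1.64 and 5.13 ± 1.98 CPM (−0.85), each with an adjusted p of 0.435, and without vehicle replicate 2 these became 0.35, 0.34 and −0.70.

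In septic lungs no sirtuin passed, nor did any of 17008 genes with edgeR, where 301 genes and 0 sirtuins had an unadjusted p under 0.05. DESeq2 called 9 genes and limma-voom 7, and neither called a sirtuin. Vehicle replicate 2, the lung of mouse A17, lay outside the range of the other 5 lungs for all 7 sirtuins: below it for 6 and above it for Sirt3. Its summed sirtuin counts came to 104 CPM of its own total, and Sirt6 rested there on 10 counts. Of the 11 lists of cell markers, the summed level of this lung lay below the other 5 lungs for 3, above them for 4 and within their range for 4. Macrophage markers summed to 1244 CPM against 3975 to 5430, with 5 of 6 genes below the other lungs and 1 above, endothelial markers to 682 against 1311 to 1930, with all 4 below, and neutrophil markers to 1350 against 1462 to 2352. Erythroid markers summed to more, 7043 CPM against 1497 to 3096, with 1 of 3 genes above the other lungs and 1 below. The sums of fibroblast, T cell and cardiomyocyte markers also lay above. Of 4 fibroblast genes 2 were above and 1 below, of 4 T cell genes 2 were above and 0 below. Of 6 cardiomyocyte genes 3 were above and 2 below. The part of this in the sirtuin values was not tested. Sirt3 held 13.0, 47.2 and 12.3 CPM in vehicle and 14.4, 13.2 and 14.2 CPM in β-NMN lungs. The log2 fold change of Sirt3 was −0.78 (SE 0.54) with this library and 0.14 (SE 0.18) without it. Psmd13, a proteasome subunit gene whose exons share 342 bases with those of Sirt3 on the other strand, was also highest in this library, with 436 CPM against 87.2 to 176 in the other lungs. Ric8a, which shares 418 exon bases with Sirt3 on the other strand, was lowest there, with 40.6 CPM against 76.9 to 88.7. No source states that the counting used strand, and without strand the reads of the shared bases cannot be told apart.

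Sirt4 held 10.3, 2.31 and 11.1 CPM in vehicle and 12.3, 12.1 and 12.5 CPM in β-NMN lungs, and it was the member with no overlap between groups, a pattern seen in 8.21% of all genes, as higher in 4.47% and as lower in 3.75%. Its log2 fold change was 0.61 (SE 0.53, adjusted p = 0.969, edgeR), and 0.20 (SE 0.18) without vehicle replicate 2. Sirt2 held 113, 23.8 and 127 CPM in vehicle and 87.8, 111 and 118 CPM in β-NMN lungs. Sirt6 held 14.5, 1.44 and 19.0 CPM in vehicle and 11.9, 14.8 and 15.6 CPM in β-NMN lungs. For both the fitted log2 fold change was 0.26, and without that lung it was −0.19 for Sirt2 and −0.24 for Sirt6.

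Sirt7 held 59.0, 38.4 and 73.0 CPM in vehicle and 74.8, 57.6 and 68.7 CPM in β-NMN lungs, a log2 fold change of 0.24 (SE 0.29) that became 0.02 without vehicle replicate 2. Sirt1 held 24.0, 16.04 and 18.6 CPM in vehicle and 19.5, 29.0 and 23.3 CPM in β-NMN lungs (0.29, SE 0.26, and 0.17 without that lung). Sirt5 held 8.57, 4.62 and 8.74 CPM in vehicle and 10.2, 12.1 and 8.58 CPM in β-NMN lungs (0.48, SE 0.34, and 0.25 without it). Groups overlapped in these 3 genes. The 95% intervals in lungs ran from −0.44 to 0.91 for Sirt7, from −2.06 to 0.50 for Sirt3 and from −1.48 to 1.99 for Sirt6, all with vehicle replicate 2 included. Whether the Sirt7 difference of peritoneal cells differs from that of lungs was not tested.

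**Figure D3:**
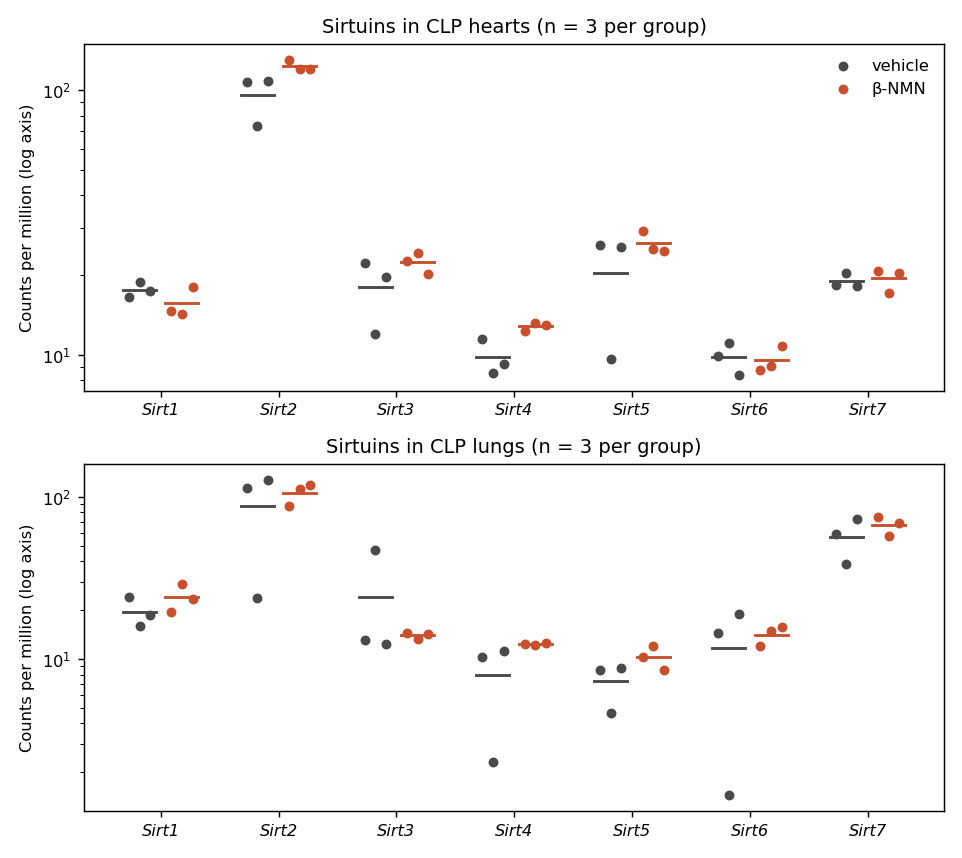
Sirtuins in hearts and lungs of septic mice. The y axes give CPM on log axes, points are libraries of 3 vehicle and 3 β-NMN mice, plotted from left to right as replicates 1 to 3, and horizontal lines are group means. Vehicle replicate 2 is the low point of Sirt2, Sirt3, Sirt4 and Sirt5 in hearts. In lungs it is the low point of every sirtuin but Sirt3, of which it is the high point at 47.2 CPM.

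The lists gave no call in lungs. Stat3, a substrate of SIRT1, held 352 ± 220 CPM in vehicle and 191 ± 3.57 in β-NMN lungs (log2 fold change −0.88, adjusted p = 0.969, edgeR), and Sod2 held 289 ± 252 and 128 ± 27.2 CPM (−1.18, adjusted p = 0.969). Crebbp (−1.39), Hdac4 (−1.06) and Hif1a (−1.11) were likewise spread widely within the vehicle group, with SDs of 242, 65.7 and 76.0 CPM on means of 207, 69.8 and 76.1 CPM. Medians of the 8 lists other than the sirtuins ran from −0.23 for the NAD salvage enzymes to 0.23 for the lysine acetyltransferases, against 0.00 over all genes. Without vehicle replicate 2 the values were −0.23 for Stat3, −0.17 for Sod2, 0.23 for Crebbp, 0.06 for Hdac4 and 0.12 for Hif1a, and the medians of the 8 lists ran from −0.11 to 0.02, against 0.02 over all genes.

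**Figure D4:**
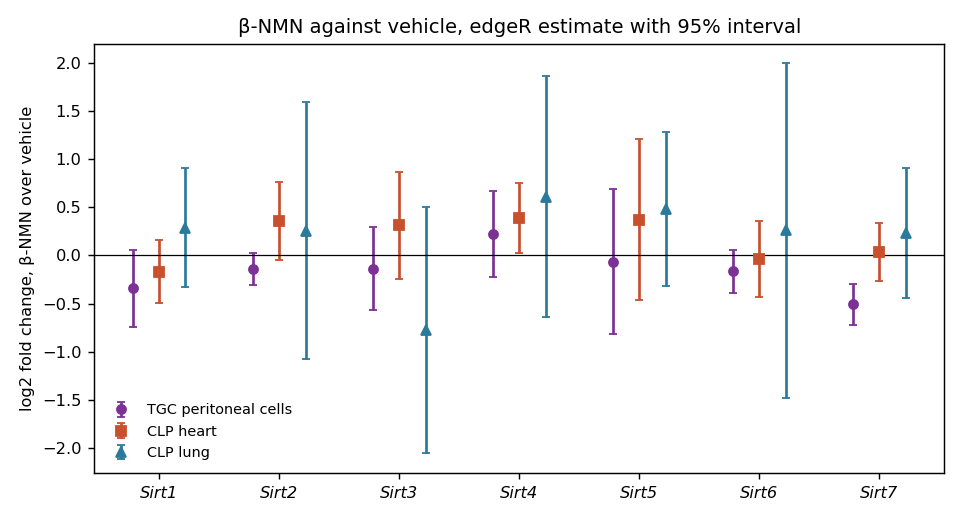
Change of each sirtuin with β-NMN in the 3 tissues. The y axis gives the log2 fold change of β-NMN over vehicle fitted by edgeR, with 95% intervals from the degrees of freedom of its test, for peritoneal cells (n = 6 per group), hearts and lungs (n = 3 per group). Sirt7 in peritoneal cells lies at −0.51 with its interval below 0, the interval of Sirt4 in hearts, 0.03 to 0.75, lies above 0 before any adjustment for the number of genes, and the widest intervals are those of Sirt2, Sirt3, Sirt4 and Sirt6 in lungs.

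A heart and a lung came from each of the 6 septic mice, and within mice 4 of 7 sirtuins differed between the organs. Over all 16525 genes tested 64% passed, 29.6% as higher in heart and 34.5% as lower. Sirt5 differed most among the sirtuins. On a scale shared by both organs it held from 11.8 to 36.4 CPM in hearts and from 3.52 to 9.73 in lungs, and each heart was between 3.23 and 4.59 times its own lung. Its log2 fold change of heart over lung was 2.01 (SE 0.14, 4.03-fold) with an adjusted p of 5.79e-06 by edgeR with the mouse as a block. Sirt5 was higher in heart in 6 of 6 mice, as were 28.5% of all tested genes, and an exact sign-flip test gave p = 0.0312, the smallest that 6 mice allow.

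Sirt5 lies on chromosome 13 at 43365496 to 43395203, plus strand (GRCm38). Its start window is shown because it was the sirtuin that differed most between organs. It spans chr13:43365285-43365584 (RefSeq, GRCm38.p6, plus strand), with matches to the same 6 motifs in capitals.
Sirt5: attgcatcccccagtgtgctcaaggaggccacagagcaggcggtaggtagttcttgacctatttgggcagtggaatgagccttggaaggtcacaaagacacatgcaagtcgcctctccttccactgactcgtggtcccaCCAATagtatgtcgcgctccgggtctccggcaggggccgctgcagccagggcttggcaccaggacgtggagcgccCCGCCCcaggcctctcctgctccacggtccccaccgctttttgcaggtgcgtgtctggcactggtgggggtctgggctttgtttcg
It held 1 GC box, read on the other strand, and 1 CCAAT box, which 37.4% of all windows hold, and no ETS motif or NRF1 core. The NRF1 core was present in a window of Sirt6, with 2 overlapping matches, 1 on each strand, as well as in that of Sirt7.

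Sirt7 was the single member with more in lung. Hearts held 21.6 to 25.8 CPM and lungs 29.3 to 59.9 CPM, and the lung was higher in 6 of 6 mice, a direction shared by 30.5% of all genes. The log2 fold change of heart over lung was −1.04 (SE 0.17), 2.06-fold more in lung, with an adjusted p of 0.000696 (edgeR). Mouse A17 had the smallest ratio of lung to heart, 1.18, against 2.11 to 2.65 in the other 5 mice.

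Sirt2 and Sirt4 were higher in heart in 6 of 6 mice. Sirt2 had a log2 fold change of 0.94 (SE 0.25, adjusted p = 0.0110, edgeR), and its ratio of heart to lung was 4.95 in mouse A17 and between 1.29 and 2.30 in the others. Sirt4 had a log2 fold change of 0.88 (SE 0.27, adjusted p = 0.0203), and its ratio was 5.94 in mouse A17 and between 1.26 and 1.69 in the others. Sirt3 had 0.93 (SE 0.37) and missed the threshold with an adjusted p of 0.0534: its heart held 2.13 to 2.85 times its lung in 5 mice and 0.407 times in mouse A17. Without mouse A17, Sirt3 passed with 1.43 (adjusted p = 5.26e-07), as did Sirt5 (2.18), Sirt2 (0.82), Sirt4 (0.75) and Sirt7 (−1.07), 5 of 7 sirtuins, while 13037 genes passed in all.

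Sirt1 and Sirt6 were not called between organs. Sirt1 held 17.9 to 23.0 CPM in hearts and 12.2 to 23.4 in lungs (log2 fold change 0.25, SE 0.18, adjusted p = 0.245, edgeR), with the heart higher in 5 of 6 mice. Sirt6 had 0.35 (SE 0.46, adjusted p = 0.530) with the heart higher in 4 of 6 mice, and 0.05 without mouse A17. Scaling by library totals moved the median of all genes from −0.08 to −0.72, a shift that lowered every sirtuin alike, and under it Sirt1 was at −0.38, Sirt6 at −0.33, Sirt2 at 0.29 and Sirt4 at 0.23, none of them called, while Sirt5 and Sirt7 kept their calls.

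**Figure D5:**
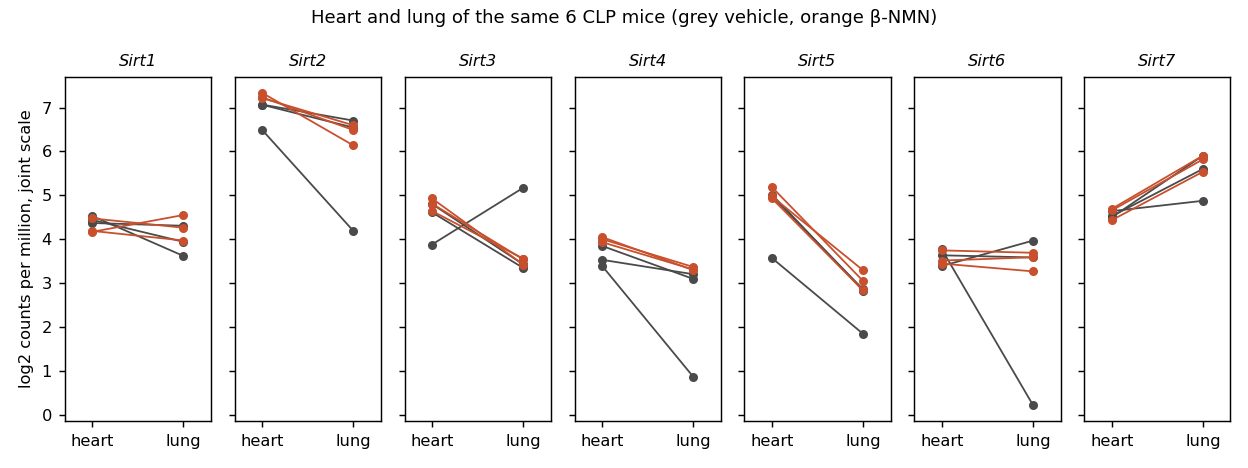
Sirtuins in heart and lung of the same mice. The y axis gives log2 CPM on a scale shared by the 12 organ libraries, and each line joins the organs of 1 of 6 mice, 3 given vehicle (grey) and 3 given β-NMN (orange). Every line falls from heart to lung for Sirt2, Sirt4 and Sirt5, every line rises for Sirt7, and vehicle mouse A17 is the line that runs against the rest for Sirt3 and drops furthest for Sirt6.

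Among the list genes, substrates of the mitochondrial sirtuins were higher in heart for 14 of 16 tested members and lower for 1, with a median log2 fold change of 2.76 against −0.08 over all genes. Zinc-dependent deacetylases were higher in heart for 5 of 11 and lower for 3, and NAD salvage enzymes were higher for 5 of 8 and lower for 1, beside 29.6% of all genes higher and 34.5% lower. The difference in the β-NMN effect between heart and lung, tested as an interaction, was called for 0 of 7 sirtuins and 0 of 18318 genes (edgeR, 797 genes and 0 sirtuins at an unadjusted p under 0.05, 14 genes and 0 sirtuins called by DESeq2). This fit had no term for the mouse, although both organs came from the same animals, and with the mouse as a block it also called 0 sirtuins and 0 genes, with 498 genes at an unadjusted p under 0.05. The largest interaction value was that of Sirt3, 1.03 (SE 0.60, adjusted p = 0.960), which became 0.20 (SE 0.32) without the vehicle lung of mouse A17, and without it those of Sirt4, Sirt5, Sirt6 and Sirt7 changed sign.

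Over the 24 libraries each sirtuin had genes outside the family that lay nearer to it than any other sirtuin did. Likeness was measured as the root mean square difference of mean-centred log2 CPM, among 12859 genes tested in all 3 tissues, and it is a description with the tissues as its main source of variation. Sirt3 (SD over libraries 2.05), Sirt4 (1.78) and Sirt5 (2.49) varied most, being low in peritoneal cells. The genes most like Sirt7 were Bloc1s3 and Stx5a, at differences of 0.20 and 0.21, and those most like Sirt1 were Zfp131 and Xpot, at 0.21 each. Sirt2 was nearest to Flii (0.22) and Pcbp2 (0.24), and Sirt6 to Pcnx3 (0.19) and Tmem39b (0.23). Sirt3 was nearest to Eif2b4 (0.27) and Las1l (0.29), Sirt4 to Jup (0.28) and Cd151 (0.31), and Sirt5 to Ehhadh and Pink1 (0.46 and 0.47). The nearest sirtuin to any sirtuin was at 0.55, Sirt1 with Sirt2, and Sirt1 ranked 554 among the genes nearest to Sirt2. That difference exceeded the SD over libraries of Sirt1 (0.53) and Sirt2 (0.52). Sirt3 lay at 0.88 from Sirt4 and 0.92 from Sirt5, less than the SDs of these genes. The measure is not scaled by spread, so genes that vary more can lie further apart. No value was computed without the lung of mouse A17, where Sirt2 held 23.8 CPM against 87.8 to 127 in the other lungs.

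The positions of the other members and their neighbours bear on how separately they were counted. Sirt2 lies on chromosome 7 at 28766735 to 28788661 (plus strand) and shares 42 exon bases with Nfkbib on the other strand, Sirt3 on chromosome 7 at 140863666 to 140882309 (minus strand), where Psmd13 and Ric8a overlap it as given above, Sirt4 on chromosome 5 at 115478010 to 115484725 (minus strand), and Sirt6 on chromosome 10 at 81621785 to 81627797 (minus strand). Nfkbib, an inhibitor of NF-κB, and Ric8a were both lower in β-NMN peritoneal cells, with log2 fold changes of −0.55 for each (adjusted p = 0.000182 and 0.000406, edgeR), whereas Sirt2 and Sirt3 were not called. Sirt4, Sirt5 and Sirt6 shared no exon bases with another annotated gene. Apart from Mafg, which overlaps it, the nearest coding neighbours of Sirt7 were Pcyt2 at 436 bases and Pycr1 at 10472 bases. Both were lower in peritoneal cells, as were 27.9% of all genes, with log2 fold changes of −0.57 (adjusted p = 0.0120, edgeR) and −1.41 (adjusted p = 0.000352). Those of Sirt6, BC025920 and Ankrd24, had log2 fold changes of −0.60 (not called) and −1.01 (adjusted p = 0.00564, edgeR) in peritoneal cells, and those of Sirt1, Herc4 and Dnajc12, had 0.06 and −0.09.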

How the data were processed

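The authors aligned the reads of each library to the mouse genome (mm10) with STAR (version 2.7.3a per the labels) and counted them per gene with featureCounts 2.0.0, and deposited 2 tables of raw counts by gene symbol. Annotation, strand setting and treatment of shared reads are not given in the sources used here. From the counts, libraries were grouped by label, low-count genes were removed with filterByExpr, library sizes were scaled by TMM, and groups were compared with edgeR 4.0.16 (quasi-likelihood F-test, Benjamini-Hochberg, called below 0.05) within each tissue. Intervals are the fold change ± its SE times the t quantile at the degrees of freedom of that test. Heart and lung were compared with the mouse as a block, because both came from the same animals, and their interaction with treatment without it. Log2 CPM used a prior count of 2. Alternatives were DESeq2 1.42.0, limma 3.58.1 (voom), other scalings, no filter, other quasi-likelihood forms, a replicate block and leaving out each library. The scripts were tested on simulated data. Each library came from a separate mouse, except heart and lung pairs. Exon lengths came from GENCODE M21 (GRCm38). Genes named from the other lists were those with the smallest p, at most 3 per list in peritoneal cells and 2 in each organ, and the motifs were chosen with the windows in view. The members and lists were chosen with earlier results of these data known. The number of libraries and counts limits the precision of every value.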

Additional observations from a re-analysis of the deposited data

Results flagged for a closer look

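The Sirt1 level of β-NMN peritoneal cell replicate 6 stood far above the other 5 of its group: its gap to the nearest was 0.822 of the group's range on the log2 scale, above the critical value of 0.625 for 6 samples. The Sirt5 level of vehicle peritoneal cell replicate 2 stood far below its group, with a gap of 0.652 of the range, on 6 counts. With 14 groups looked at in this way, chance gives such a gap in about 1 group of 20.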

How the results depend on the processing

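The Sirt7 call in peritoneal cells held under all 20 alternatives, with adjusted p values of 2.84e-05 to 0.00678. The count of sirtuins called there was 2 with limma-voom and 1 to 2 when a library was left out, 2 without β-NMN replicate 6. Sirt5 reversed there under limma-voom (0.45) and the replicate block (0.053), and ran from −0.28 to 0.10 when a library was left out. Genes called in hearts numbered 3 with no filter, 283 with DESeq2, 3 with limma-voom and 0 to 5 when a library was left out, 5 without vehicle replicate 2. In lungs they numbered 9 with DESeq2 and 7 with limma-voom. Sirtuins called stayed at 0 in both organs. In hearts Sirt7 reversed with library totals (−0.11, with the median of all genes at −0.14) and ran from −0.0091 to 0.12 when a library was left out, and Sirt6 from −0.14 to 0.053. In lungs limma-voom reversed Sirt2 (−0.034), Sirt3 (0.12) and Sirt6 (−0.039), and when a library was left out they ran from −0.19 to 0.62, from −1.06 to 0.14 and from −0.24 to 0.79. Between organs 2 sirtuins were called with library totals, and 1, Sirt5, with vehicle mice only, where 5006 genes passed. Sirt3 passed there with no filter, DESeq2, limma-voom and β-NMN mice only. Sirt1 (−0.38) and Sirt6 (−0.33) reversed with library totals and Sirt6 with limma-voom (−0.036). The interaction was called for 2 genes with no filter and 14 with DESeq2. Its sirtuin values reversed for Sirt2 with library totals (−0.052) and the replicate block of mice (−0.18), and with limma-voom for Sirt3 (−0.0035), Sirt4 (0.028) and Sirt6 (0.044). When a library was left out they ran from −0.25 to 0.58 for Sirt2, −0.51 to 0.23 for Sirt4, −0.43 to 0.15 for Sirt5, −0.79 to 0.24 for Sirt6 and −0.45 to 0.050 for Sirt7. The causes were not tested. Replicate numbers were not taken to pair vehicle with β-NMN libraries, since no source says that they do and in no tissue did every correlation exceed 0.1. Correlations of same-numbered deviations ran from −0.17 to 0.13 in peritoneal cells, 0.07 to 0.24 in hearts and −0.52 to 0.30 in lungs. A library matched its own number best in 1 of 12, 6 of 6 and 1 of 6 cases, so that in hearts the data hint at a pairing, and the block left the sirtuin counts at 1, 0 and 0 and the genes called in peritoneal cells at 7010. Sirt5 rested on 6 to 79 counts per library in peritoneal cells.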
